A study of Mus musculus with 7 samples.

Results

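The genes described here lie within 5 Mb of the body of Id2 on mouse chromosome 12, the chromosome on which 1 of the 2 targeted genes of this study sits. Members were all genes of the authors' deposited table in that window, without Id2 itself, chosen by an average of the dKO and control means of 10 or more scaled counts. A scaled count is a read count corrected for library depth and averaged over the libraries of a group. Of 39179 genes in the table, 69 lay in the window and 32 passed the minimum. The genes were selected on position and mean level, and their differences between the groups were known when they were chosen, so those differences are given as a description.

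The study sequenced messenger RNA from regulatory T cells, the CD4+TCRb+CD25hi Foxp3+ gate of a sort, taken at 3 weeks of age from the lymph nodes of C57BL/6 mice. By their titles, the numbered libraries comprise 2 controls and 3 double knockouts (dKO). Both groups carried Foxp3cre, a Cre recombinase expressed with Foxp3 and therefore active in regulatory T cells. The controls were Id2fl/+Id3fl/+, so they carried 1 floxed copy of each gene, and the dKO mice were Id2fl/flId3fl/fl. A further pair, without replicate numbers, holds 1 library titled control and 1 titled dKO. In that pair the genotype tags and the titles are swapped against each other, so the 2 are referred to as labelled control and labelled dKO, by title. Separate animals are not named for the libraries, and the authors' p-values therefore measure only a spread between libraries. Among the dKO libraries that spread may be technical, and for the controls Y-linked reads are given below.

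Id2 and Id3 encode inhibitors that bind E proteins, a family of transcription factors that recognise short E-box sequences, and keep them off DNA. A gene changed by targeting in embryonic stem cells is inherited together with the DNA around it, and breeding to another strain replaces the closest DNA last. Genes beside a targeted gene can also share regulatory DNA with it. No source used here gives the strain of the cells in which the floxed alleles were made. Effects of the DNA flanking the floxed Id2 allele and of the loss of Id2 and Id3 cannot be told apart in this design.

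Id2 (ENSMUSG00000020644, chr12:25093801-25096092, GRCm38, minus strand) averaged 783 scaled counts in the controls and 61.1 in the dKO group in the authors' deposited table, a log2 ratio of -3.68. Id3, on chromosome 4, had 1376 in control and 891 in dKO there, with an adjusted p of 0.209. In the pair, Id2 had 18.6 FPKM in the library labelled control and 9.69 in the library labelled dKO. Id3 had 160 FPKM in the library labelled control and 221 in the library labelled dKO. Read by title, Id3 was thus higher in dKO in the pair and lower in dKO in the numbered libraries. Over all genes, scaled counts came to 3.90e+07 in the controls and 3.99e+07 in the dKO group. The size factors of the control libraries, recovered from the deposited means, were 1.29 and 1.09. The first of them held 601 of the 616 reads (97.6%) recovered for Kdm5d and Uty, which are Y-linked. The control libraries thus did not hold the same mix of male and female cells, and their spread is not only technical. Where control reads could be recovered, values are given for both control libraries. Reads per library were not recovered for the dKO group, so neither the spread of its libraries nor their Y-linked reads are given. Among markers, Foxp3 averaged 13481 scaled counts in the controls and 10942 in the dKO group, and Cd3e had 21965 and 23378, in the authors' deposited table. Of the 6 regulatory T cell markers, 1 rose there, Ctla4, with 13258 in control and 26706 in dKO, 0 fell and 5 did not pass. Cd4 had 26431 and 32790, Il2ra 32376 and 32126, and Trac 16513 and 18791. The summed markers of dendritic cells were 168 in control and 112 in dKO. Of these, Xcr1 had 47.0 and 13.3 and fell by the authors' deposited table (adjusted p 0.0012). Zbtb46 had 94.3 and 57.7 and did not pass. Flt3 (10.8 and 17.8), Siglech (13.7 and 15.6), Itgax (2.22 and 5.95) and Clec9a had the higher mean in dKO. The summed markers of myeloid cells were 218 and 279, and those of CD8 T and NK cells 752 and 786. Those of stroma were 4790 and 4540, of which Pecam1 made up 4674 and 4397. Those of B cells were 1010 and 1090, of which Cd79b made up 894 and 1006, while Cd79a (71.2 and 51.1), Cr2 (17.1 and 11.4) and Blk (16.4 and 8.57) had the lower mean in dKO. Their part in the results was not tested, and in sorted bulk cells fewer cells of a type and less RNA per cell cannot be told apart.

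Of the 32 members, Rrm2, Adam17, Asap2, Gm4425, Gm5977 and 9030624G23Rik rose in dKO and Rnf144a, Cmpk2, Rps7, Zfp125 and 3110053B16Rik fell, by the authors' deposited table, while Kidins220, the gene nearest to Id2, did not pass. These 11 of the 32 members (34.4%) passed an adjusted p of 0.05 by the authors' deposited table, 6 of them higher in dKO and 5 lower. Among all genes with a mean of 10 or more, 13.3% were called in that table, 6.8% higher and 6.48% lower, and among all genes with a p, 6.56%. By the authors' deposited table, 23 of 155 genes within 5 Mb of Id3, the other targeted gene, were called (14.8%), as were 70 of 503 genes on the rest of chromosome 12 (13.9%). The median size of the log2 ratio was 0.68 among the members, 0.22 around Id3, 0.28 on the rest of chromosome 12 and 0.24 among all genes with a mean of 10 or more. Since the members were chosen with these differences known, the shares are a description and their difference was not tested. The members also had lower levels, with 40.6% under 100 scaled counts against 29.4% of all genes with a mean of 10 or more. At a mean of at least 100, 6 of 19 members were called (31.6%), against 15.6% of all such genes, in the authors' deposited table. The median size of the log2 ratio at that level was 0.34 among the members and 0.19 among all such genes. Without genes that overlap another gene, 5 of 20 members were called (25.0%), against 14.5% of all such genes.

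The promoters of 3 neighbours are shown, because these genes stand next to each other on the higher-coordinate side of Id2 and all had a log2 ratio of -1.12 or lower. They are the 250 bases before the start, 5′ to 3′ on the gene's strand, from RefSeq on GRCm38.p6. Capitals mark matches on either strand to the E-box letters CAGNTG and to letters of the interferon-stimulated response element, to which the interferon-activated complex ISGF3 binds, searched as GAAA followed after any 2 bases by GAAA. Rnf144a is at chr12:26415263-26415512 (minus strand), Rsad2 at chr12:26456453-26456702 (minus strand) and Cmpk2 at chr12:26468965-26469214 (plus strand).
Rnf144a: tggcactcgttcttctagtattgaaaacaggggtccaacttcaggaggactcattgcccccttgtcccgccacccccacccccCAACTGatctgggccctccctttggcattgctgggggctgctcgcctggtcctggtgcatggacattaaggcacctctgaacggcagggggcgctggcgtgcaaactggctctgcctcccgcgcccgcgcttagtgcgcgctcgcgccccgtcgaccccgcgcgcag
Rsad2: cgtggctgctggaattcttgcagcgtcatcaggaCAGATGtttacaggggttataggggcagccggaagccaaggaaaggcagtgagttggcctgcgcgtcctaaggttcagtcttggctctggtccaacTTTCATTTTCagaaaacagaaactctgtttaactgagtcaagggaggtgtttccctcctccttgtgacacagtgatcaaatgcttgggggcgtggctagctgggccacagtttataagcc
Cmpk2: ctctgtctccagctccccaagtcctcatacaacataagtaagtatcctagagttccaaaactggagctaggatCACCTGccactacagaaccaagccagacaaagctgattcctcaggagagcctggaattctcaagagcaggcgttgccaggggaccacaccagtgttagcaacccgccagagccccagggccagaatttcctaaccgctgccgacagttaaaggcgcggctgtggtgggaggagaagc
The Rsad2 stretch holds 1 match to the interferon element, which begins 120 bases before the start, and 1 E-box match beginning 216 bases before it. The stretches of Rnf144a and Cmpk2 hold 1 E-box match each, beginning 167 and 177 bases before their starts, and no match to the interferon letters in this window. These motifs do not overlap in the Rsad2 stretch. Over all 32851 RefSeq promoters of this length, 2.98% held the interferon letters and 44.8% held CAGNTG. Of the 32 members, 19 matched the RefSeq table, with 20 promoters, of which 2 held the interferon letters (Rsad2 and Rps7) and 9 held CAGNTG. The E-box share among the members' promoters was thus near that of all promoters.

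Among the 19 members with a mean of 100 or more scaled counts, Rnf144a, Rsad2, Rps7 and Cmpk2 had the lowest log2 ratios, and 3 of these 4 are neighbours. Rnf144a (chr12:26306797-26415256) encodes a RING-type ubiquitin ligase, and its body begins 1210.7 kb from Id2. It had 559 scaled counts in the control library with most Y-linked reads, 791 in the other control library and a dKO mean of 209.7. The dKO mean lay below both control libraries. Rnf144a fell by 1.69 in log2 units by the authors' deposited table (adjusted p 3.03e-05). Against each control library alone the log2 ratio was -1.41 and -1.92.

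Rsad2 (chr12:26442753-26456452) encodes viperin, an antiviral enzyme induced by interferon, and starts 27.5 kb beyond the end of Rnf144a. Cmpk2 (chr12:26469204-26479835), a mitochondrial nucleotide kinase that is also induced by interferon, lies 12.8 kb further and is read from the opposite strand. Rsad2 averaged 1226 scaled counts in the controls and 427 in the dKO group, a log2 ratio of -1.52 with an adjusted p of 0.0809 by the authors' deposited table, so it did not pass. Cmpk2 had 1138 in control and 525 in dKO and fell by 1.12 on the log2 scale there (adjusted p 0.0065). Reads per control library could not be recovered for either gene.

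Both genes belong to the response to type I interferon, so the other genes of that response are given beside them. Of 23 further interferon response genes elsewhere in the genome, 10 fell and 0 rose by the authors' deposited table (DESeq), and 13 did not pass. Among all genes with a mean of 10 or more, 6.48% were called lower and 6.8% higher there. This list of genes was chosen with earlier results of these data known. At an unadjusted p under 0.05, 17 of the 23 were lower and 0 higher. Their median log2 ratio was -0.77, against -0.01 over all 15446 genes with a mean of 10 or more. Ifi44 fell by 3.38, Xaf1 by 0.77, Rtp4 by 0.92 and Ifit1, which binds viral RNA, by 1.41 in log2 units by the authors' deposited table. The log2 ratios of the 23 genes ran from -3.38 (Ifi44) to 0.11 (Zbp1). Those of Rsad2 and Cmpk2 lay within this wide range and below the median of the 23, and the difference was not tested.

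On the lower-coordinate side, Kidins220 (chr12:24974932-25059697), which encodes a membrane scaffold of receptor signalling, is the nearest member to Id2, at 34.1 kb. It averaged 3081 scaled counts in the controls and 3279 in the dKO group, a log2 ratio of 0.09 with an adjusted p of 1 by the authors' deposited table. The nearest member and Id2 thus had very different log2 ratios. Mboat2 lies between Kidins220 and Rrm2, and with a mean of 4.68 it was below the minimum.

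Rrm2 (chr12:24708241-24714146), 379.7 kb from Id2, encodes the small subunit of ribonucleotide reductase, which makes the deoxynucleotides for DNA replication. It averaged 4748 scaled counts in the controls and 9388 in the dKO group, the highest dKO mean of the members, and rose by 0.98 in log2 units by the authors' deposited table (adjusted p 9.65e-06). Of 22 other genes of S phase and nucleotide supply, 17 rose and 0 fell by the authors' deposited table (DESeq), 5 did not pass, and the median log2 ratio was 0.61. Among all genes with a mean of 10 or more, 6.8% were called higher and 6.48% lower there. These S phase genes were listed with earlier results of these data known. At an unadjusted p under 0.05, 21 of the 22 were higher and 0 lower. Rrm1, the large subunit gene, which lies outside the window, rose by 0.79, Tyms by 0.82 and Cdc45 by 0.83 there. Rrm2 had a larger log2 ratio than these, and the difference between genes was not tested.

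The remaining members within 1 Mb had log2 ratios of both signs. Klf11, a zinc finger transcription factor gene 431.0 kb from Id2, had 178 and 312 scaled counts in the control libraries and a dKO mean of 271, which lay between them (log2 0.14). For Grhl1, a grainyhead transcription factor gene, the control libraries had 633 and 406 scaled counts and the dKO mean was 360 (log2 -0.53, adjusted p 0.406 in the authors' deposited table). The dKO mean of Grhl1 was below both control libraries, but the log2 ratio was -0.17 against one and -0.81 against the other. Taf1b, which encodes a factor of RNA polymerase I initiation, averaged 1599 scaled counts in the controls and 1260 in the dKO group (log2 -0.34, adjusted p 0.146) in the authors' deposited table. Gm16372, which the deposited table lists as protein-coding but describes as a pseudogene of an actin related protein 2/3 complex subunit, had 9.33 and 2.75 in the control libraries and 15.8 in dKO, with an adjusted p of 0.498 there. Of 9030624G23Rik, at 996.8 kb, the control libraries held 32.7 and 35.7 scaled counts and the dKO mean was 67.5. It rose by 0.98 in log2 units by the authors' deposited table (adjusted p 0.0472), and the control libraries were close to each other.

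**Figure D1:**
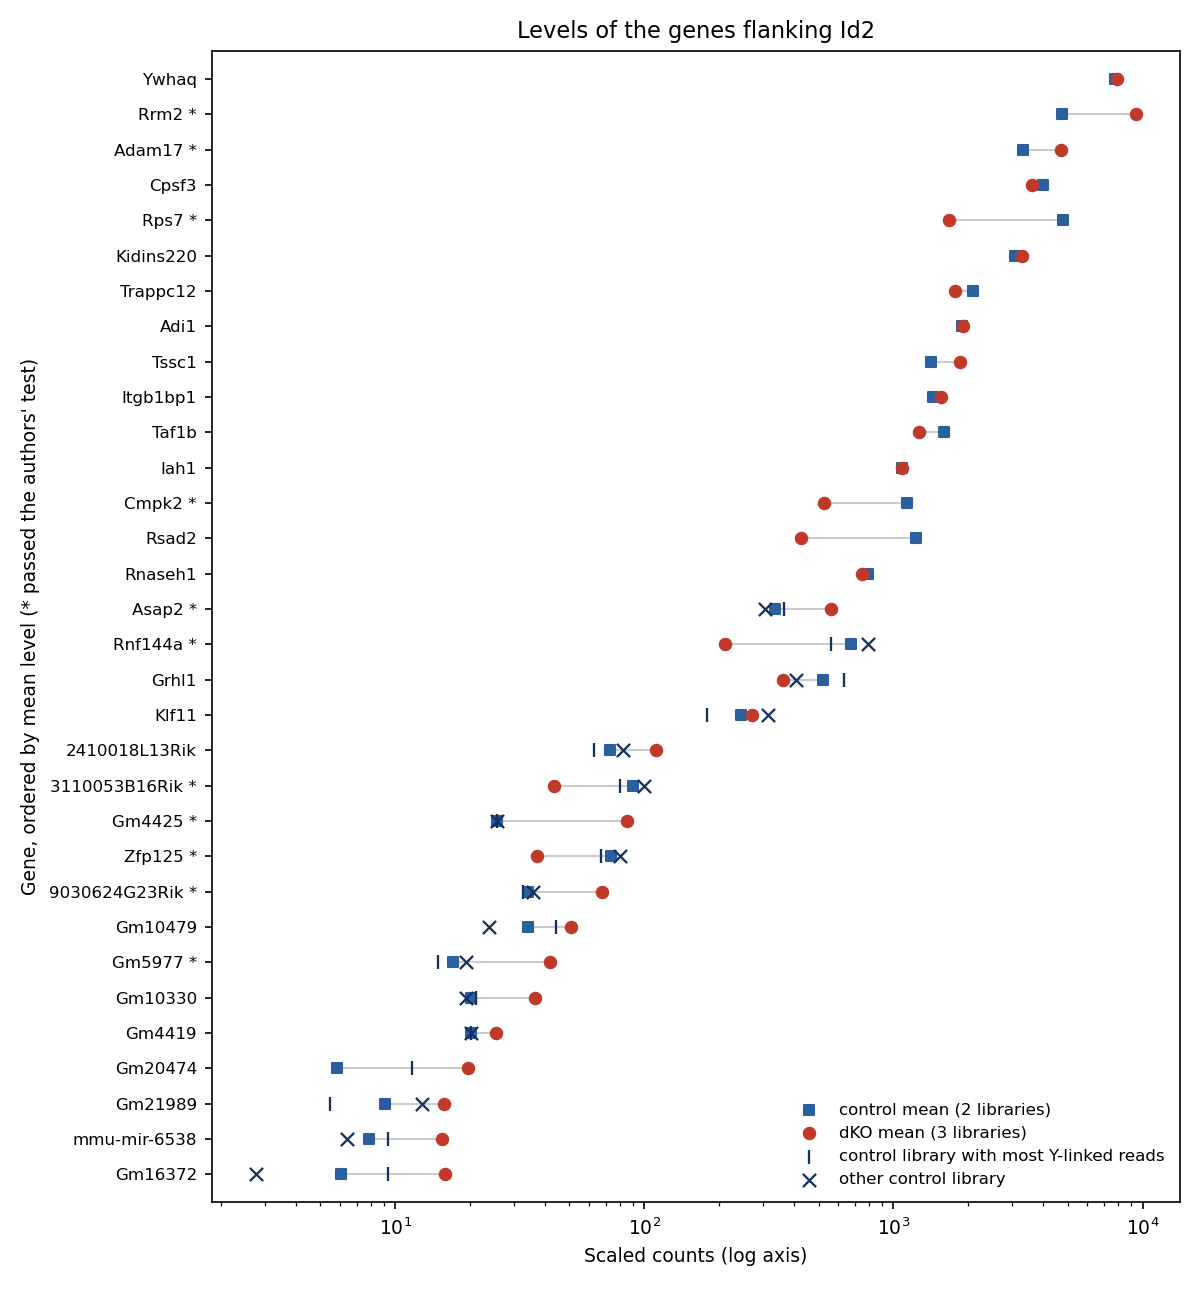
Scaled counts on a log axis for the 32 genes flanking Id2, ordered by their mean over both groups. Squares are control means (2 libraries), circles are dKO means (3 libraries), and bars and crosses are the control libraries where their reads could be recovered (17 genes; a library with 0 reads of Gm20474 is not drawn). For Gm4425 both control libraries lie at 25.6 or 25.7 and the dKO mean at 85.5, while for Klf11 the dKO mean lies between the control libraries.

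Farther out on the lower side lies a stretch of weakly expressed, mostly predicted genes. Gm4425, a long intergenic RNA 2937.2 kb from Id2 (chr12:22115756-22156646), had 25.7 and 25.6 scaled counts in the control libraries, from 33 and 28 reads, and a dKO mean of 85.5. It rose by 1.74 in log2 units by the authors' deposited table (adjusted p 1.12e-05), and the control libraries could hardly be told apart. The long intergenic RNA 2410018L13Rik had 63.0 and 82.4 in the control libraries and 111 in dKO (adjusted p 0.165 by the authors' deposited table). Gm10330 had 20.1 in the controls, from 27 and 21 reads in the 2 libraries, and 36.5 in dKO, with an adjusted p of 0.393 there. The pseudogene Gm20474 rested on 15 reads in one control library and 0 in the other, so its log2 ratio, 1.74 by the authors' deposited table, went to 0.74 against the first library alone. Gm4419, a long intergenic RNA beside Ywhaq, had 20.2 and 20.1 in the control libraries and 25.4 in dKO. Gm10479, at 4660.1 kb the farthest member, had 44.3 and 23.8 in the control libraries and 50.7 in dKO. Of the 13 members with a mean under 100 scaled counts, 5 passed by the authors' deposited table (38.5%), 3 higher and 2 lower, against 7.73% of all 4543 genes with a mean from 10 to under 100. Gm16372, Gm20474, Gm21989 and mmu-mir-6538 had control means under 10 and reached the minimum through dKO alone, so their higher dKO mean was set by the minimum, and 0 members reached it through control alone. No tally of directions is therefore drawn from the weakly expressed members.

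The 2 that fell are 3110053B16Rik and Zfp125, a zinc finger gene whose body lies inside that of 3110053B16Rik on the same strand, so their reads may be shared. 3110053B16Rik (chr12:20874125-20921262) had 80.1 and 99.8 scaled counts in the control libraries and 43.5 in dKO, and Zfp125 (chr12:20899822-20900867) had 66.9 and 79.6 and a dKO mean of 37.1. Both dKO means were below both control libraries. They fell by 1.05 (adjusted p 0.011) and 0.98 (adjusted p 0.0426) in log2 units by the authors' deposited table. A further gene inside the same body, Gm10478, was below the minimum, with 12.9 scaled counts in control and 2.62 in dKO.

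Beside them stands a group of overlapping genes around Adam17, 3.7 to 4.05 Mb from Id2. Adam17 (chr12:21323509-21373632) encodes the protease that sheds L-selectin, tumour necrosis factor and other surface proteins. It averaged 3300 scaled counts in the controls and 4724 in the dKO group and rose by 0.52 in log2 units by the authors' deposited table (adjusted p 0.0453). Adam10, a related sheddase gene elsewhere in the genome, had 5374 and 5506 there and did not pass, and Rhbdf2, which encodes a partner that carries ADAM17 to the cell surface, fell by 0.77 (adjusted p 0.0054). Asap2 (chr12:21111748-21270171), an Arf GTPase-activating protein gene, had 363 and 304 in the control libraries and 561 in dKO. Asap2 rose by 0.75 in log2 units by the authors' deposited table (adjusted p 0.0003), with a dKO mean above both control libraries. The pseudogene Gm5977 had 14.8 and 19.2 in the control libraries and 41.6 in dKO and rose by 1.29 in the authors' deposited table (adjusted p 0.044). Gm5977 is near-identical to Asap2 in sequence, and the sum of both genes had a log2 ratio of 0.78. Gm21989, a processed transcript over the same stretch, had 5.44 and 12.8 in the control libraries and 15.7 in dKO, and it shares near-identical sequence with 2410018L13Rik.

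The other genes of this stretch differed little. Itgb1bp1, which encodes a regulator of integrin activation, averaged 1437 scaled counts in the controls and 1550 in the dKO group, and Iah1, an esterase gene, had 1082 and 1077, in the authors' deposited table. Cpsf3, the endonuclease of messenger RNA 3′ end formation, had 3979 and 3609 there. Ywhaq, the 14-3-3 theta gene and the member with the highest mean, had 7768 in control and 7893 in dKO (log2 0.02 in the authors' deposited table). None of these 4 passed, and their log2 ratios lay between -0.14 and 0.11. Of the 6 other 14-3-3 genes, 0 passed in the authors' deposited table (DESeq), with 2 higher and 0 lower at an unadjusted p under 0.05 and a median log2 ratio of 0.14.

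**Figure D2:**
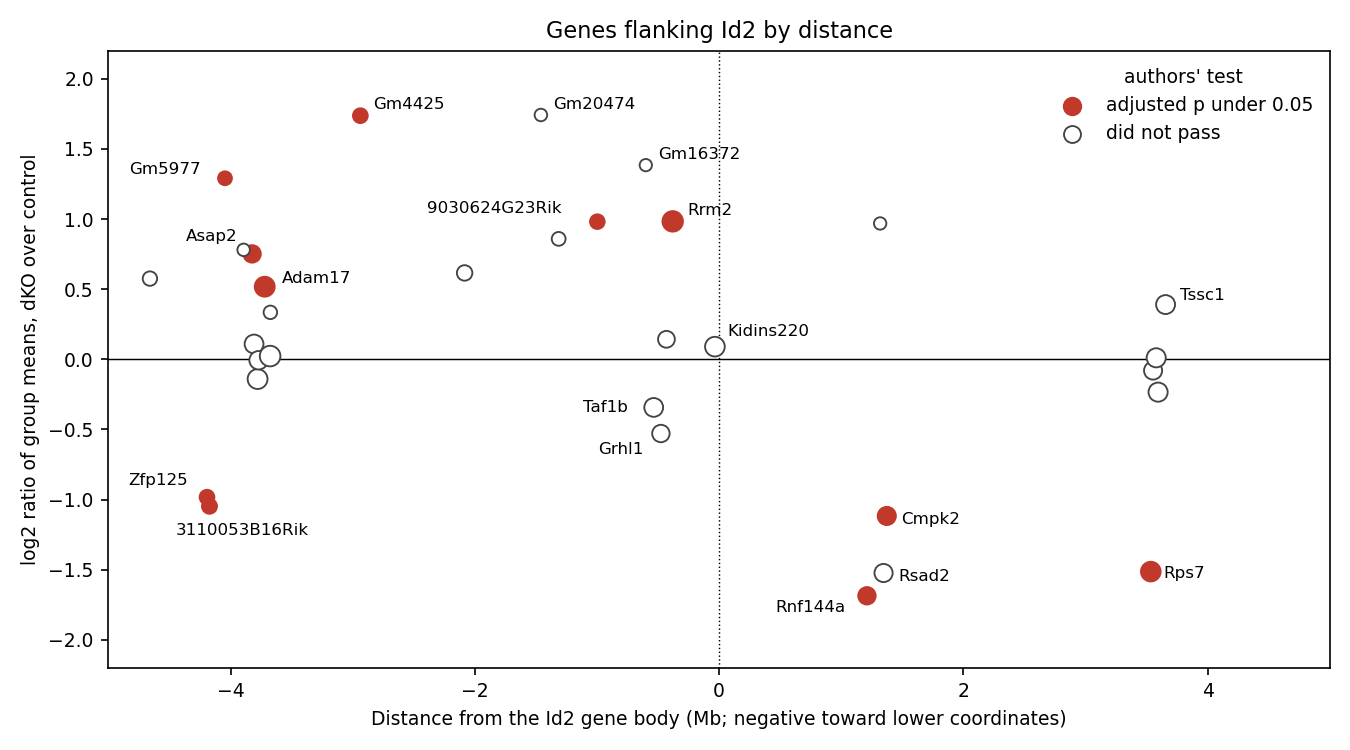
Log2 ratio of the group means, dKO over control, of the 32 members against the distance in Mb between each gene's body and that of Id2, with negative distances toward lower coordinates. Filled points passed the authors' test at an adjusted p under 0.05, open points did not, and larger points have a higher mean. Kidins220, the nearest, sits at 0.09, Rnf144a, Rsad2 and Cmpk2 sit together between -1.69 and -1.12, and called genes lie at many distances.

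After Cmpk2, no member occurs over 2151.0 kb of the higher side, up to Rps7. Rps7 (chr12:28630847-28635953) encodes a protein of the small ribosomal subunit and had the highest control level of the members per length, 4968 scaled counts per kb of exon, against 2538 for Ywhaq and 1714 for Rrm2. It averaged 4774 scaled counts in the controls and 1672 in the dKO group and fell by 1.51 in log2 units by the authors' deposited table (adjusted p 1.61e-10). This value is uncertain, because 4 near-identical copies elsewhere in the genome carried reads as well. Gm6472, a copy on the X chromosome, averaged 63400 scaled counts in the controls and 58833 in the dKO group in the authors' deposited table. Gm9493, a copy on chromosome 19, had 4426 and 42.0 there. Most reads of this family were thus assigned to a copy and not to Rps7 itself. Rps7 and the 4 copies together summed to 72667 in control and 60595 in dKO, a log2 ratio of -0.26. Of 19 other small subunit protein genes, 1 fell (Rps24, by 0.38) and 0 rose by the authors' deposited table (DESeq), 18 did not pass, and the median log2 ratio was -0.22. Among all genes with a mean of 10 or more, 6.48% were called lower and 6.8% higher there. At an unadjusted p under 0.05, 5 of these 19 were lower and 0 higher.

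**Figure D3:**
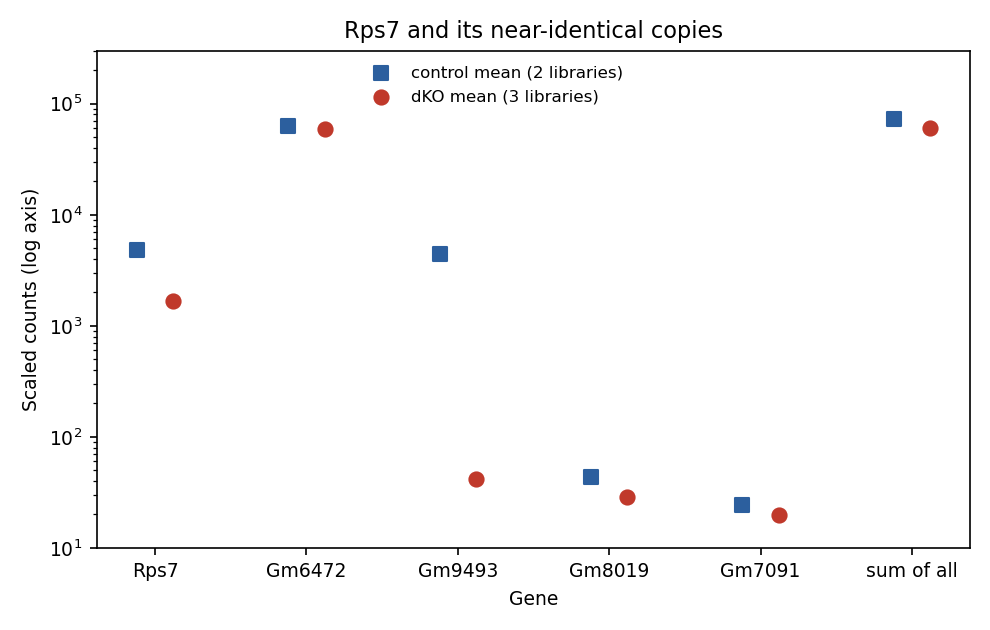
Scaled counts on a log axis of Rps7, its 4 near-identical copies and the sum of all 5, as control means (squares, 2 libraries) and dKO means (circles, 3 libraries). Rps7 stands at 4774 and 1672 and Gm9493 at 4426 and 42.0, whereas the sum stands at 72667 and 60595.

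The genes next to Rps7 showed smaller differences. Rnaseh1, which encodes an enzyme that removes RNA from RNA-DNA hybrids, averaged 788 scaled counts in the controls and 746 in the dKO group, and Adi1, an enzyme gene of methionine salvage, had 1888 and 1902, in the authors' deposited table. Of 9 other genes of polyamine and methionine salvage, 0 passed there (DESeq), 2 were higher and 0 lower at an unadjusted p under 0.05, and the median log2 ratio was 0.05. Trappc12, a vesicle trafficking gene, had 2080 in control and 1768 in dKO (log2 -0.23, adjusted p 0.53) in the authors' deposited table. Tssc1, the member of the higher side with the largest positive log2 ratio apart from the microRNA gene mmu-mir-6538, had 1410 and 1848 (log2 0.39, adjusted p 0.0742). Neither of these passed. The row of mmu-mir-6538 lies inside the body of Rnf144a on the same strand and had 9.33 and 6.41 scaled counts in the control libraries and 15.4 in dKO.

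Distance did not order the members. Within 1 Mb of Id2, 2 of 7 members were called in the authors' deposited table, both higher, with a median size of the log2 ratio of 0.53. From 1 to 2.5 Mb, 2 of 7 were called, both lower, with a median size of 1.12, and from 2.5 to 5 Mb, 7 of 18 were called, with a median size of 0.45. The rank correlation between distance and the size of the log2 ratio was -0.14 over the 32 genes, and that between mean level and the size was -0.46. These genes share the same libraries, so both are descriptions. Both correlations and the median sizes also include Gm16372, Gm20474, Gm21989 and mmu-mir-6538, whose higher dKO mean was set by the minimum. No relation of level to size is therefore drawn from the second correlation. By side, 8 of 23 members at lower coordinates were called (34.8%), 6 higher and 2 lower, in the authors' deposited table (DESeq). At higher coordinates 3 of 9 were called there (33.3%), 0 higher and 3 lower. Among all genes with a mean of 10 or more, 13.3% were called, 6.8% higher and 6.48% lower. The 3 include Rps7, whose log2 ratio was -0.26 when summed with its copies. On the lower-coordinate side, Gm5977 is near-identical to Asap2, and Zfp125 lies inside 3110053B16Rik, so their calls may not be separate. The difference between the sides was not tested. On the higher-coordinate side 1 member, Tssc1, was higher at an unadjusted p under 0.05.

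Just inside the minimum were Gm16372, with a mean of 10.9, and mmu-mir-6538, with 11.6, and just outside it were Gm20472, with 8.48, and Colec11, a collectin gene, with 8.34. Of the 37 genes of the window below the minimum, 28 had a p and 0 passed in the authors' deposited table (DESeq). At an unadjusted p under 0.05, 2 of these were lower, Gm10478 and 1700030C10Rik, and 0 higher, and 9 of the 37 were listed at 0 in both groups.

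The unnumbered pair gives values from other libraries, as FPKM, without replicates and therefore without a test of the conditions. Its direction is read by title, and every log2 ratio of the pair takes the opposite sign if the genotype tags are followed instead. Of the 32 members, 20 matched its transcript entries and 16 had 5 FPKM or more in at least 1 library. Rnf144a had 6.69 FPKM in the library labelled control and 1.05 in the library labelled dKO, a log2 ratio of -1.91 with 1 FPKM added to each value. It was the 1 member of 16 with a log2 ratio of at least 1 in size, which 5.71% of all 8619 such genes reached. Rrm2 had 56.8 and 99.2 FPKM (log2 0.79), and Adam17 had 22.2 and 29.6 (log2 0.40). Cmpk2 had 7.47 and 5.11 FPKM, and Rsad2, below 5 FPKM in both, had 4.31 and 3.21. Read by title, these 5 genes had the same direction in the pair as in the numbered libraries, and read by genotype tag all 5 had the opposite one.

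Rps7 was the reverse of these, with 44.9 FPKM in the library labelled control and 50.4 in the library labelled dKO. Grhl1 had 5.02 and 2.32 FPKM (log2 -0.86), and Kidins220, next to Id2, had 12.9 and 14.2. Read by title, 11 of the 16 members were alike in direction in the pair and in the authors' deposited table (68.8%), against 71.0% of 8493 genes that could be compared. Read by genotype tag, these shares were 5 of 16 (31.2%) and 29.0%. The share among the members was near that of all genes on either reading. Among genes called in the authors' deposited table, 4 of 5 members and 92.2% of 1270 genes had the same direction by title, and 1 of 5 and 7.8% by genotype tag.

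**Figure D4:**
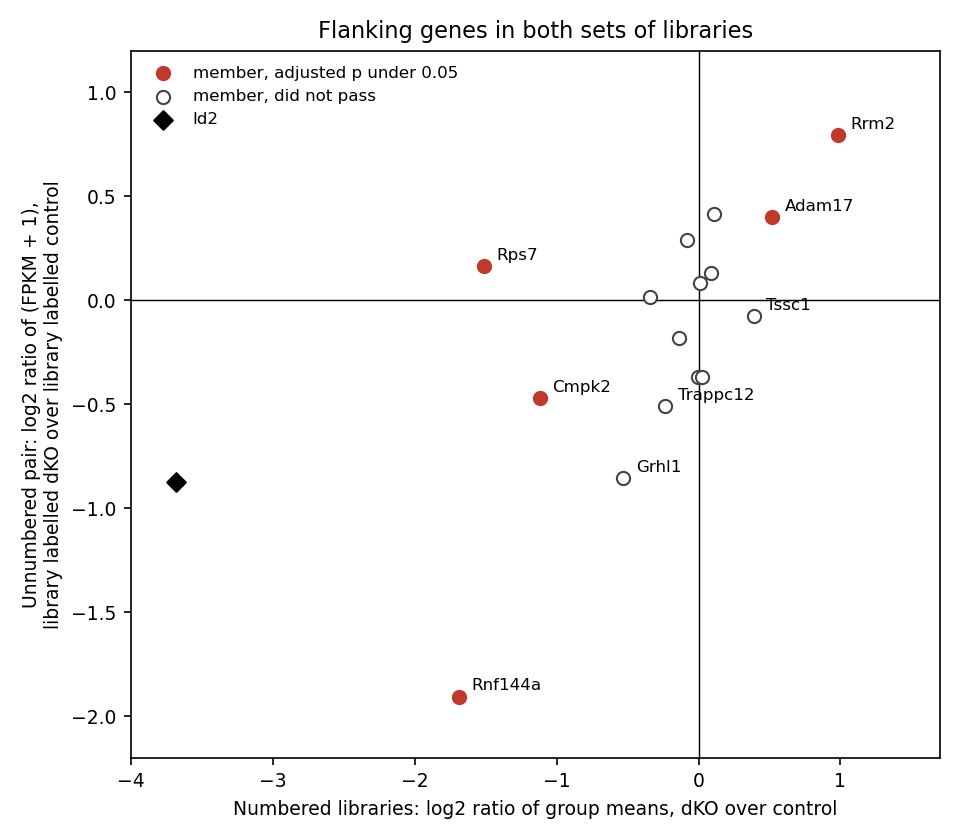
Log2 ratio in the unnumbered pair, read by title, from FPKM plus 1, against the log2 ratio of group means in the numbered libraries, for the 16 members with 5 FPKM or more and for Id2 (diamond). Filled points passed the authors' test in the numbered libraries and open points did not. Rnf144a lies low in both (-1.69 and -1.91), Rrm2 high in both (0.98 and 0.79), and Rps7 has opposite signs (-1.51 and 0.16).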

How the data were processed

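Messenger RNA of sorted regulatory T cells was measured in 7 libraries, grouped by title. For the numbered libraries the authors deposited group means, which the file header calls raw counts. The deposited signal values are fractional, in steps of whole reads over a library's size factor, and are called scaled counts. Per the submitters' processing notes, RSEM and DESeq were used on mm10 (GRCm38). The deposited log2 ratios and the deposited p-values, raw and Benjamini-Hochberg adjusted, are the authors'. For the pair, the deposited FPKM values came from TopHat 1.4.0 and Cuffdiff 0.0.6 on mm9, per the submitters' processing notes, and no mm9 coordinate is used. The strand setting of the counting was not given in these sources.

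Tests on counts per library could not be made from group means, so the authors' DESeq test was read at an adjusted p under 0.05. Reads per control library were recovered where exactly 1 combination of whole reads gave the printed mean within 1e-04, for 17 members, and the recovery was tested on simulated data. Which control replicate each is cannot be told. Near-identical copies were found with blastn 2.17.0 among GENCODE M21 transcripts (at least 95% identity over 60% of the shorter transcript and 200 bases). In the pair, FPKM was summed per gene, 95.6% of 27901 entries matched a gene, 1 FPKM was added before taking log2, and genes with 5 FPKM or more in 1 library entered. Python 3.11.15 and pandas 2.3.3 were used.

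Members and gene lists were chosen with earlier results of these data known. Genes named were Id2, the 3 nearest members on each side, every member called, the 6 with the highest mean, the 4 with the largest log2 ratio at a mean of 100 or more, members of a list with up to 4 other list genes, and genes at the edge of the minimum. The remaining members and other genes were named after their values were seen.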

Additional observations from a re-analysis of the deposited data

How the results depend on the processing

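No paired analysis was possible because the deposited table holds group means. For the same reason fits without single replicates or with another normalization were not run. The count of 11 called members (34.4%, against 13.3% of all genes with a mean of 10 or more) became 5 of 20 without overlapping genes (25.0%, against 14.5%). It was 4 of 14 in a window of 2.5 Mb (28.6%) and 19 of 77 in one of 10 Mb (24.7%), both against 13.3%. These windows hold fewer or more genes. The count was 10 at a minimum of 50 (41.7%, against 15.6% of all such genes) and also 10 without Rps7 (32.3%). For protein-coding genes it was 8 (33.3%, against 14.8%), and at an adjusted p under 0.1 it was 13 (40.6%, against 16.2%). With no minimum it was 11 of 60, which lowers the share to 18.3%, against 6.56% of all genes. The count around Id3 became 14 of 92 without overlapping genes (15.2%, against 14.5% of all such genes). In the unnumbered pair, 5 of 16 members in place of 11 had the direction of the numbered libraries when it was read by genotype tag. The settings without Rps7 and by genotype tag were chosen after seeing the data.

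The median log2 ratio of the members, 0.13, was 0.002 at a minimum of 50, 0.24 without overlapping genes, 0.017 for protein-coding genes and 0.38 within 2.5 Mb, so no direction is given for the members as a whole. The median size within 1 Mb was 0.77 with no minimum. From 1 to 2.5 Mb it was 1.32 at a minimum of 50 and for protein-coding genes and 0.86 with no minimum, and beyond 2.5 Mb 0.31, 0.23 and 0.78. The cause was not tested. Over the 17 members with recovered control reads, the median log2 ratio was 0.75, and 0.72 to 0.89 against a single control library. Of these 17, 16 kept their direction against each control library, Klf11 being the exception. The 17 include Gm16372, Gm20474, Gm21989 and mmu-mir-6538, whose higher dKO mean was set by the minimum. No direction is therefore drawn from this median or from the count of 16. Depth limits the weakest members: the control libraries held 12 and 3 reads of Gm16372 and 15 and 0 of Gm20474.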
